A study of Mus musculus with 24 samples.

Results

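The 10 genes described here belong to the contractile and calcium machinery of fast-twitch muscle fibres, and they were followed in newborn mouse hindleg muscle under 4 maternal diets. They are Mybpc2, Pvalb, Actn3, Tnnt3, Tnni2, Tnnc2, Myl1, Mylpf, Atp2a1 and Casq1. They were chosen by symbol, with earlier results of these data known. Every probe set annotated to one of these symbols alone was taken, which gave 12 of 45101 probe sets and 10 of 18193 genes. Tnni2 had 3 probe sets and each other gene had 1. The animals were C57BL/6 pups killed on the day of birth (day 0), and their mothers were fed 1 of 4 diets from day 1 of pregnancy until birth. LPtau was a low protein diet of 8% casein with 1% taurine in the drinking water, and LP was the same low protein diet without taurine. NPtau was a normal protein diet of 20% casein with 1% taurine in the water, and NP was that diet without taurine and the control. All 4 diets differed only in casein and taurine as far as the labels state. Total RNA of hindleg skeletal muscle was read on Affymetrix arrays, 12 in all with 3 per diet, and this small number sets the precision. A further 12 arrays of liver from the same design served as a tissue without these fibres. Replicates are labelled as biological, but whether the pups of a diet had different dams is not stated, so a p-value reflects the spread among these samples alone.

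Skeletal muscle contracts when calcium released from the sarcoplasmic reticulum binds troponin and frees the thin filament for myosin. Fast-twitch fibres carry their own isoforms of troponin, myosin light chain and calcium pump, and clear calcium quickly. In mice, fibres mature from fetal to adult isoforms around and after birth, and parvalbumin, a soluble calcium buffer, is known as a late marker of fast fibres. In RNA from whole muscle, fewer cells of a type and less RNA per cell cannot be told apart.

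RefSeq promoter sequences (build GRCm38.p6) were at hand for 7 of the 10 genes, 8 promoters in all. The 250 bases before the annotated start are shown, 5′ to 3′, for the pair of genes with the largest diet differences and, for contrast, for Mylpf, which differed little. Capitals mark matches, on either strand, to the E-box CANNTG, which myogenic basic helix-loop-helix factors can bind, or to the MEF2 motif, which does not overlap an E-box here. The Mybpc2 promoter lies at chr7:44524670-44524919 on the minus strand, the first of 2 Pvalb promoters at chr15:78206401-78206650 on the minus strand, and the Mylpf promoter at chr7:127211358-127211607 on the plus strand.
Mybpc2: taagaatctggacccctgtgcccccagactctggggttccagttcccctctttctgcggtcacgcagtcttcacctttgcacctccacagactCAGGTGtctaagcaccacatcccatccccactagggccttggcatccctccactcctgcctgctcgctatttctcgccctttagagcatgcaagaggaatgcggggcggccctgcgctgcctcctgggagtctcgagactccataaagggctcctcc
Pvalb: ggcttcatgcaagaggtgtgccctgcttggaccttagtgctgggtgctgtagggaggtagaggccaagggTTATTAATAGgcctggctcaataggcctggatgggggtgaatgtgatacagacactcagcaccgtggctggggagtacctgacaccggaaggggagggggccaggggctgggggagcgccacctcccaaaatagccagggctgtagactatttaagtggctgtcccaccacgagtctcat
Mylpf: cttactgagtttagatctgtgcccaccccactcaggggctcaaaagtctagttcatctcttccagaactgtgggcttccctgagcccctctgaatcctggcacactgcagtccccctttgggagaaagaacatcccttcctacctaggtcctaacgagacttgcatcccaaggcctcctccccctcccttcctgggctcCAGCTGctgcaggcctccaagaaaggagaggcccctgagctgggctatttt
The capitals in the Mybpc2 and Mylpf promoters are 1 E-box each. The capitals in the Pvalb promoter are its 1 MEF2 match, and this promoter held 0 E-boxes. An E-box occurred in 7 of the 8 promoters of these genes, against 66.2% of the 32851 mouse promoter windows of this length. A MEF2 match occurred in 1 of the 8, against 2.92% of all windows. Letter matches describe the sequence and say nothing about binding.

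Some of the 12 muscle arrays stood apart from the rest. LPtau 1 had 2850 probe sets more than 1 log2 unit from the median of the 12 arrays, LP 1 had 1818 and LP 3 had 1045, against 121 to 589 on the other arrays. The highest value on NPtau 2 was 14.2, and on the other arrays it was 14.65 to 14.91. LP against NP, LPtau against LP and the interaction are given also without LPtau 1, LP 1 and NPtau 2, a choice made after seeing the data. This choice kept LP 3, although it had more such probe sets than NPtau 2 (1045 against 529). Leaving out LP 3 alone ended the call of Actn3 in LP minus NP (adjusted p 0.0644 in limma). It also ended the calls of Mybpc2 and Pvalb in LPtau minus LP (0.0686 for both). Array medians lay between 4.952 and 5.043.

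The muscle of LP pups had far less mRNA for 3 of the 10 genes than that of NP pups. The log2 differences of the other 7 were smaller (-1.04 to -0.23) and did not pass the test. Each value is a log2 level of a probe set, made by the authors with RMA, and 1 unit is a doubling. A gene was called when its Benjamini-Hochberg adjusted p over all 18193 genes was under 0.05 in limma. Of the 10 genes, 3 were called in LP against NP, all of them lower. Over all genes, 23 were called in either direction (0.126%) and 19 of these were lower (0.104%). As the 10 genes were chosen with earlier results of these data known, shares over all genes here and below give scale only. They are no test of the 10 as a set.

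Mybpc2 encodes fast myosin-binding protein C, which lies along the thick filament. Its values were 6.23, 6.78 and 5.79 in LP muscle, against 10.82, 10.75 and 10.72 in NP muscle. Every LP array lay nearly 4 units or more below every NP array, and the NP arrays were close together. The mean was 6.265 ± 0.495 in LP and 10.76 ± 0.0494 in NP (SD, n = 3 each). The LP minus NP difference was -4.50 (SE 0.40, 95% confidence interval -5.38 to -3.61), a 22.6-fold lower level with an adjusted p of 0.00228 in limma. On the LP arrays the probe set ranked at percentile 64.3, 70.8 and 60.0 of all probe sets, and on the NP arrays at 97.6, 97.3 and 97.3.

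Pvalb encodes parvalbumin, the calcium buffer named above. It read 4.91, 6.01 and 4.92 in LP muscle, against 9.64, 9.48 and 9.17 in NP muscle. The groups lay far apart, and LP 2 was the highest of the LP arrays. LP averaged 5.283 ± 0.634 and NP 9.427 ± 0.24 (SD, n = 3 each). The difference of -4.14 (SE 0.32, interval -4.85 to -3.44) was 17.7-fold on a linear scale, with an adjusted p of 0.000987 in limma, the smallest of all genes in this comparison. The probe set ranked at percentile 48.3, 62.6 and 48.9 on the LP arrays, so on 2 of the 3 it sat at the middle of the array, and at 94.4, 93.4 and 92.0 on the NP arrays. No detection calls were used here, so LP signal could not be told from background there and the fold may be an understatement.

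Actn3 encodes alpha-actinin-3, the Z-disc actin crosslinker of fast fibres. Its 3 values were 8.52, 10.01 and 9.07 in LP muscle, against 12.22, 12.15 and 12.17 in NP muscle. All LP arrays were at least 2 units below the NP arrays, with LP 2 again the highest. LP averaged 9.203 ± 0.755 and NP 12.18 ± 0.0362 (SD, n = 3 each), a difference of -2.98 (SE 0.37, interval -3.78 to -2.17) and a 7.87-fold lower level. The adjusted p of 0.0211 in limma was less secure than for Mybpc2 and Pvalb. Without NP replicate 1, 2 or 3 it became 0.0992, 0.105 and 0.136, and without LP replicate 3 it became 0.0644, at differences of -2.91 to -2.99.

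**Figure D1:**
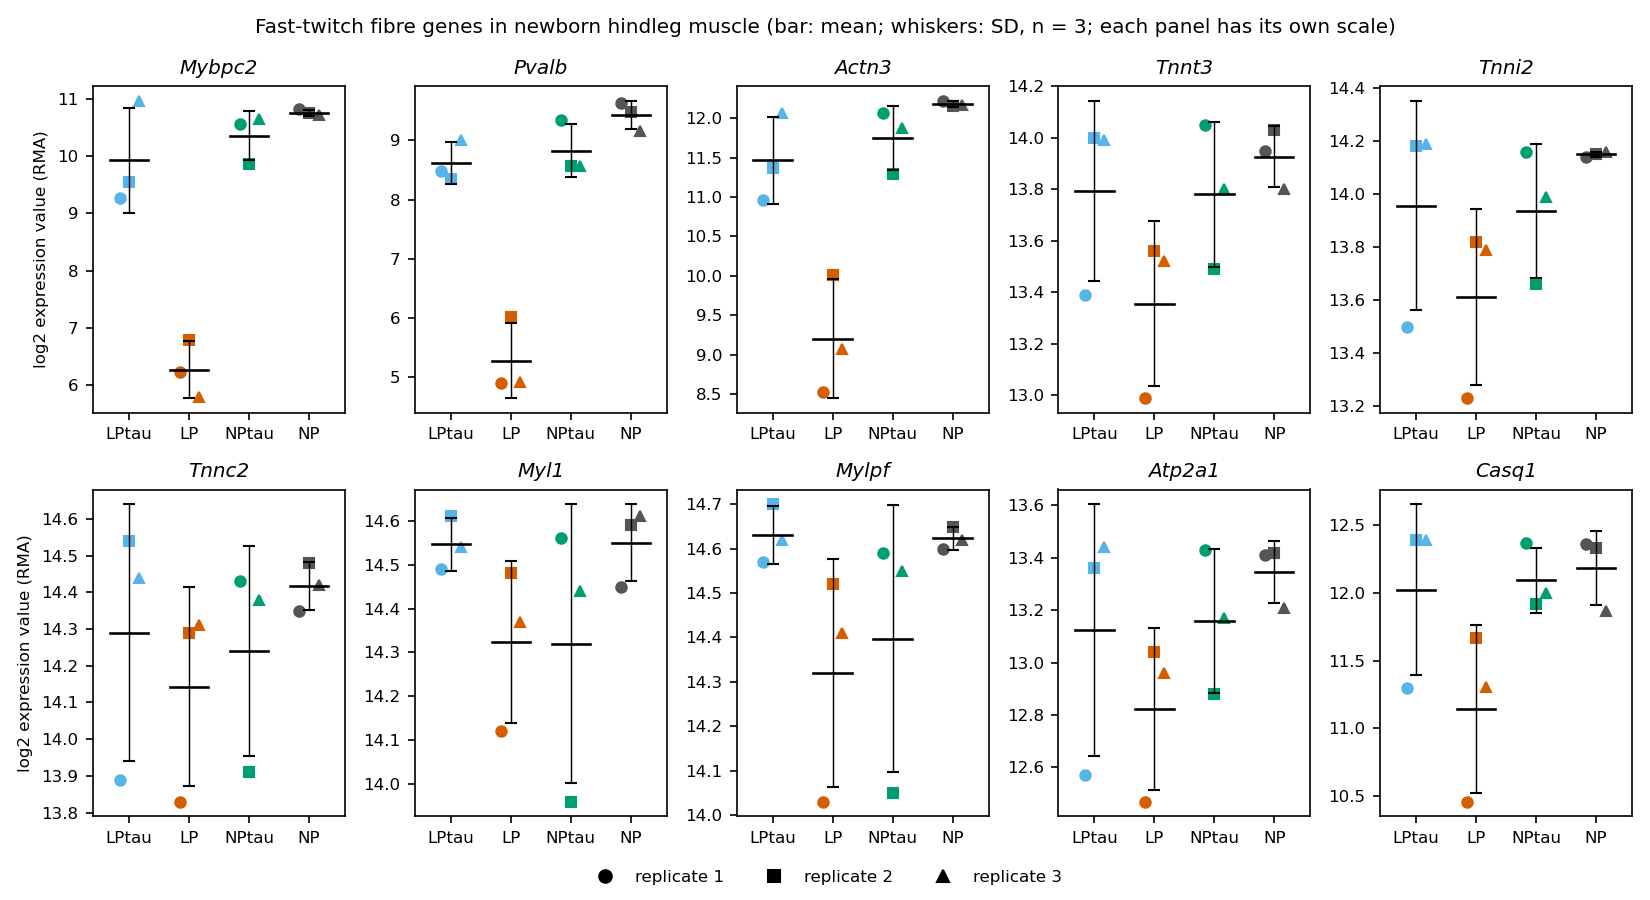
Log2 expression values (y axis, own scale in each panel) of the 10 genes on the 12 muscle arrays by maternal diet. Points are arrays, bars are means and whiskers SD (n = 3). Mybpc2, Pvalb and Actn3 sit lowest on the 3 LP arrays, and the other 7 panels span a much smaller range.

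The 3 fast troponin genes encode the complex that senses calcium on the thin filament: Tnnt3 the tropomyosin-binding subunit, Tnni2 the inhibitory subunit and Tnnc2 the calcium-binding subunit. Tnnt3 read 12.99, 13.56 and 13.52 in LP muscle, against 13.95, 14.03 and 13.80 in NP muscle. Tnni2 read 13.23, 13.82 and 13.79 in LP, against 14.14, 14.15 and 14.16 in NP, and Tnnc2 read 13.83, 14.29 and 14.31 in LP, against 14.35, 14.48 and 14.42 in NP. In each gene LP 1 was the lowest array and the LP arrays lay below all NP arrays, by a narrow margin for Tnnc2. The differences were -0.57 (SE 0.21) for Tnnt3, -0.53 (SE 0.22) for Tnni2 and -0.28 (SE 0.20) for Tnnc2, with adjusted p of 0.343, 0.397 and 0.725 in limma. The other pair of Tnni2 probe sets gave -0.66 and -0.44, the same sign as the first. One of that pair read only 3.73 to 4.84 on the 12 arrays, below the array medians. The main probe sets ran within 1.66 (Tnnt3), 1.41 (Tnni2) and 0.913 units (Tnnc2) of the highest value on every array. The room left at the top of the scale was thus limited, most of all for Tnnc2. Its part in these differences was not tested.

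Myl1 encodes the essential light chain and Mylpf the regulatory light chain of fast myosin. Myl1 read 14.12, 14.48 and 14.37 in LP muscle, against 14.45, 14.59 and 14.61 in NP muscle, and LP 2 lay just above the lowest NP array. Mylpf read 14.03, 14.52 and 14.41 in LP, against 14.60, 14.65 and 14.62 in NP. The Mylpf groups did not overlap, and LP 1 was again the lowest of all arrays. The differences were -0.23 (SE 0.16) and -0.30 (SE 0.16), with adjusted p of 0.698 and 0.583 in limma. Both probe sets ran within 0.621 units of the highest value on every array, so the room left at the top of the scale was small. Whether this affected the 2 differences was not tested.

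Atp2a1 encodes SERCA1, the calcium pump of fast fibres, and Casq1 encodes calsequestrin-1, which stores calcium inside the reticulum. Atp2a1 read 12.47, 13.04 and 12.96 in LP muscle, against 13.41, 13.42 and 13.21 in NP muscle. Casq1 read 10.46, 11.67 and 11.31 in LP, against 12.36, 12.33 and 11.87 in NP. Neither pair of groups overlapped, and LP 1 was the lowest array of both genes. The differences were -0.52 (SE 0.24) for Atp2a1 and -1.04 (SE 0.34, interval -1.80 to -0.28) for Casq1, with adjusted p of 0.474 and 0.273 in limma. Casq1 thus had the next largest difference after the 3 called genes.

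Over the 10 genes the LP minus NP differences were all negative, with a median of -0.55, beside a median of -0.01 over all genes. The 7 genes not called ranged from -1.04 to -0.23. In 9 of the 10, Myl1 being the exception, all LP arrays lay below all NP arrays, which held for 11.6% of all genes. LP 1 was the lowest of the 12 arrays for 8 of the 10 genes, LP 3 for Mybpc2 and NPtau 2 for Myl1. Without LPtau 1, LP 1 and NPtau 2 the differences were -4.48 for Mybpc2, -3.96 for Pvalb and -2.63 for Actn3, and all 3 were still called (adjusted p 0.00526, 0.00526 and 0.00781 in limma). The other 7 then had smaller differences, -0.70 (Casq1) to -0.12 (Tnnc2), against -1.04 and -0.28 for this pair with all arrays, and none was called. For these 7 the same values were obtained without LP 1 alone.

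With taurine in the mothers' water, muscle of low protein pups held much more Mybpc2 and Pvalb mRNA than without it. Actn3 was also higher on every array, but it did not pass the test. Of the 10 genes, 2 were called in LPtau against LP, both higher, beside 4 of all genes (0.022%). The LP arrays are the ones used above, so this comparison and that of LP with NP share them and their differences are linked. Mybpc2 read 9.26, 9.55 and 10.97 in LPtau muscle, against 6.23, 6.78 and 5.79 in LP muscle. LPtau 3 lay above all 3 NP arrays, and LPtau 1 and LPtau 2 lay below them. The LPtau minus LP difference was 3.66 (SE 0.40, interval 2.78 to 4.55), 12.7-fold, with an adjusted p of 0.0143 in limma.

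Pvalb read 8.49, 8.34 and 9.01 in LPtau muscle, against 4.91, 6.01 and 4.92 in LP muscle, and the groups were more than 2 units apart. Its difference was 3.33 (SE 0.32, interval 2.63 to 4.03), with an adjusted p of 0.00913 in limma. On a linear scale this was 10.1-fold, which the LP values near the middle of the array may understate. Without LP replicate 3 neither gene was called: the differences were 3.43 for Mybpc2 and 3.15 for Pvalb, with an adjusted p of 0.0686 for both. Both calls also ended in a fit of only the LPtau and LP arrays (adjusted p 0.456 for both) and with the replicate number as a block (0.0863 for both). Actn3 read 10.96, 11.37 and 12.06 in LPtau, against 8.52, 10.01 and 9.07 in LP. These groups did not overlap either, and the difference of 2.26 (SE 0.37, interval 1.45 to 3.07) had an adjusted p of 0.0835 in limma. Without LP replicate 2, the highest of the LP arrays, it was 2.67 and passed at 0.0122. Without LPtau 1, LP 1 and NPtau 2 all 3 genes passed in limma, with 3.98 for Mybpc2 (adjusted p 0.0238), 3.21 for Pvalb (0.0321) and 2.17 for Actn3 (0.0364).

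The other 7 genes differed by 0.15 to 0.88 between LPtau and LP, and none was called. Casq1 had the largest of these differences, 0.88 (SE 0.34), from 11.30, 12.39 and 12.39 in LPtau and 10.46, 11.67 and 11.31 in LP. Tnnt3 read 13.39, 14.00 and 13.99 in LPtau, against 12.99, 13.56 and 13.52 in LP, and LPtau 1 lay below LP 2 and LP 3. That same array overlapped LP in Tnni2 (13.50, 14.18 and 14.19), Tnnc2 (13.89, 14.54 and 14.44) and Atp2a1 (12.57, 13.36 and 13.44). Myl1 (14.49, 14.61 and 14.54) and Mylpf (14.57, 14.70 and 14.62) lay above LP on all LPtau arrays. All 10 differences were positive, with a median of 0.39 beside 0.02 over all genes. In 5 of the 10 genes all LPtau arrays lay above all LP arrays (Mybpc2, Pvalb, Actn3, Myl1 and Mylpf), against 9.03% of all genes. Markers of other tissues also had different means in this comparison, with 0 called: LPtau was lower than LP in 6 of 6 skin epithelium markers (median -2.14) and in 7 of 7 measured fibroblast markers (-0.31). The log2 of the summed skin level was 8.97, 8.20 and 14.06 on the LPtau arrays, against 16.01, 11.20 and 10.09 on the LP arrays, and that of the fibroblast level was 15.68, 16.16 and 16.26, against 16.61, 16.28 and 16.27. Their part in the result was not tested.

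**Figure D2:**
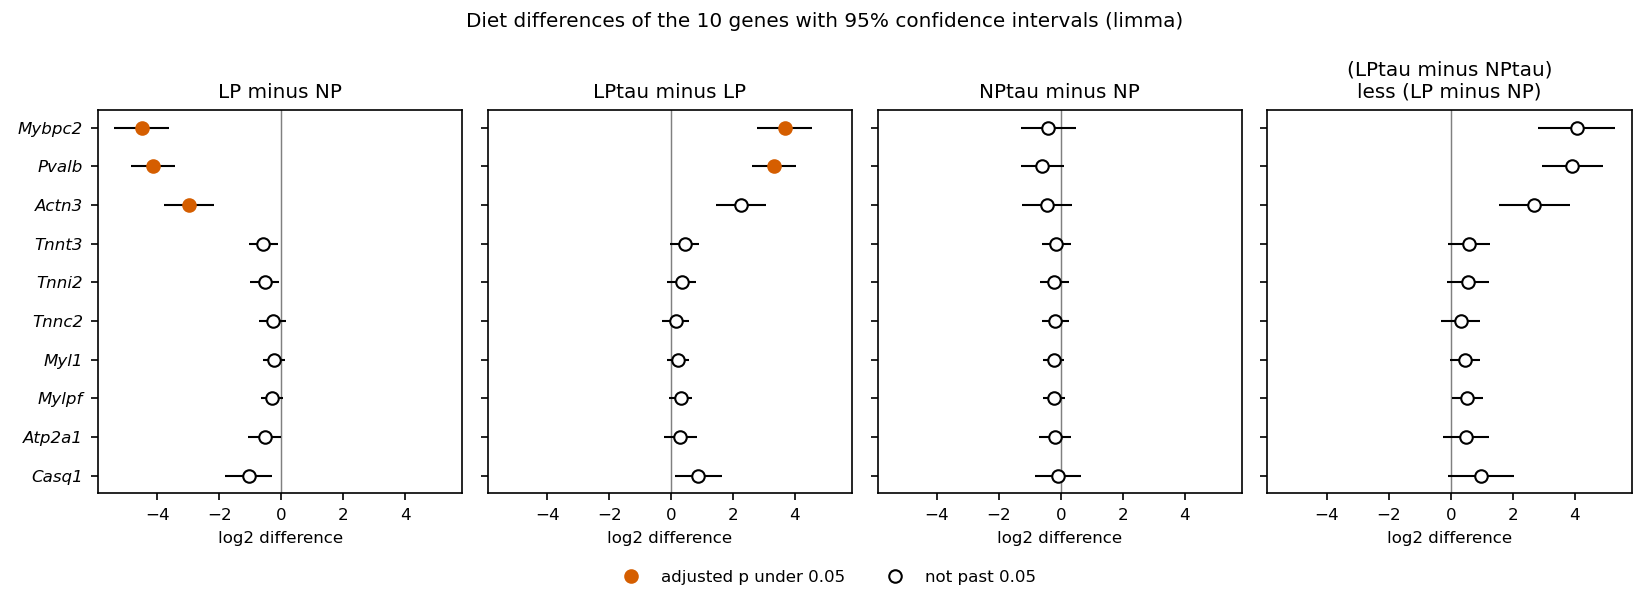
Log2 differences of the 10 genes (x axis) in 4 muscle comparisons, with 95% confidence intervals from limma. Filled points passed an adjusted p of 0.05: Mybpc2, Pvalb and Actn3 in LP minus NP, and Mybpc2 and Pvalb in LPtau minus LP.

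At normal protein, taurine came with no called change in the 10 genes. NPtau against NP had 0 calls among them and 0% over all genes in limma, where 88 genes had an unadjusted p under 0.05. Mybpc2 read 10.56, 9.87 and 10.66 in NPtau muscle, Pvalb 9.34, 8.57 and 8.58, and Actn3 12.07, 11.29 and 11.87. NPtau 2 was the lowest NPtau array for each of the 3, with NPtau 3 at nearly the same Pvalb value. Their NPtau minus NP differences were -0.40 (interval -1.29 to 0.49), -0.60 (interval -1.30 to 0.10) and -0.43 (interval -1.24 to 0.37). The other 7 genes differed by -0.23 to -0.09. NPtau arrays all lay below NP arrays in 3 of the 10 genes (Mybpc2, Actn3 and Mylpf), against 3.14% of all genes. For Mylpf the margin was narrow, with 14.59 on NPtau 1 against 14.60 on NP 1. Mylpf read 14.05 on NPtau 2, an array whose highest value was only 14.2. This comparison and that of LP with NP share the NP arrays.

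LPtau muscle was set against both normal protein groups. Against NP, 0 of the 10 genes and 0% of all genes were called in limma, with 682 genes at an unadjusted p under 0.05. The differences were -0.83 (interval -1.72 to 0.05) for Mybpc2, -0.81 (interval -1.52 to -0.11) for Pvalb and -0.71 (interval -1.52 to 0.09) for Actn3. LPtau arrays all lay below NP arrays in Pvalb and Actn3, 2 of the 10 genes, against 5.43% of all genes. The other 7 ranged from -0.22 to 0.01. Against NPtau, 0 of the 10 and 0% of all genes were called, with 992 at an unadjusted p under 0.05, and the 10 differences lay between -0.43 and 0.24 with 5 of each sign. These tests do not show that the levels were alike: for Mybpc2 the intervals reach to -1.72 against NP and to -1.32 against NPtau.

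An interaction tested the effect of low protein with taurine against that without it, LPtau minus NPtau less LP minus NP. It called 0 of the 10 genes and 0% of all genes in limma, with 1194 genes at an unadjusted p under 0.05. Pvalb had the smallest p of all genes, with an interaction of 3.93 (SE 0.45) and an adjusted p of 0.0544, and Mybpc2 the next, with 4.06 (SE 0.57) and 0.119. Actn3 followed at rank 11 with 2.69 (SE 0.52) and 0.434. Leaving out NPtau replicate 1 gave 4.19 for Pvalb at an adjusted p of 0.0493, and leaving out LP replicate 2 gave 4.30 at 0.00599. Each of the other 10 arrays left out gave an adjusted p of 0.0815 to 0.306. The sex covariate gave 0.245 and the replicate block 0.393, and without LPtau 1, LP 1 and NPtau 2 together it was 0.191. For the other 7 genes the interaction itself was 0.33 to 0.97 log2 units, with adjusted p of 0.749 to 0.847 in limma. The 10 genes were all positive, with a median of 0.57 beside 0.03 over all genes.

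In LP against NP, none of 7 lists of related muscle genes had a member called. All 7 other fast fibre genes had lower LP means, with a median difference of -1.12. The fast myosin heavy chains had the largest: -1.94 (SE 0.41) for Myh4, -1.61 (SE 0.36) for Myh1 and -1.60 (SE 0.46) for Myh2, with adjusted p of 0.0976, 0.11 and 0.197 in limma. In LPtau minus LP these 3 had 0.79, 1.67 and 1.59, also not called.

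Calcium release and reuptake genes had lower LP means in 19 of 19, with a median of -0.57. The largest differences were -1.22 for Sypl2, which encodes mitsugumin-29 of the triad, -1.03 for Cacnb1, a subunit of the voltage sensor, and -0.91 for Trdn, which encodes triadin. Sarcomere genes shared by all fibres had a median of -0.55, with 15 of 16 negative, led by Xirp1 at -1.30, Tcap at -1.12 and Lmod2 at -1.0. The 7 uncalled fast-twitch genes had a median of -0.52, and their difference from the sarcomere genes was not tested. Among genes of glycolysis and related muscle metabolism 13 of 13 were negative, with a median of -0.71. The largest differences were -1.48 for the phosphorylase kinase subunit gene Phkg1, -1.35 for Gpd1 and -1.21 for the muscle AMP deaminase gene Ampd1.

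Slow fibre genes were mixed: 9 of 14 were negative, with a median of -0.41. The largest were -2.05 (SE 0.40, adjusted p 0.0839 in limma) for the stretch-responsive ankyrin repeat gene Ankrd2, -1.25 for the slow light chain gene Myl2 and -0.96 for the slow heavy chain gene Myh7. Developmental fibre genes, the isoforms of fetal muscle, had small differences, with a median of -0.19 and a largest of -0.29 for Myh8, the perinatal heavy chain, then -0.22 for Myh3 and -0.21 for Actc1. Of 17 measured regulators of fibre type and myogenesis 10 were negative, with a median of -0.16. Ppargc1a had -0.91 (SE 0.78), Prdm1 0.70 (SE 0.57) and Sox6, a repressor of slow fibre genes, -0.54 (SE 0.27). None of these regulators passed the test.

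**Figure D3:**
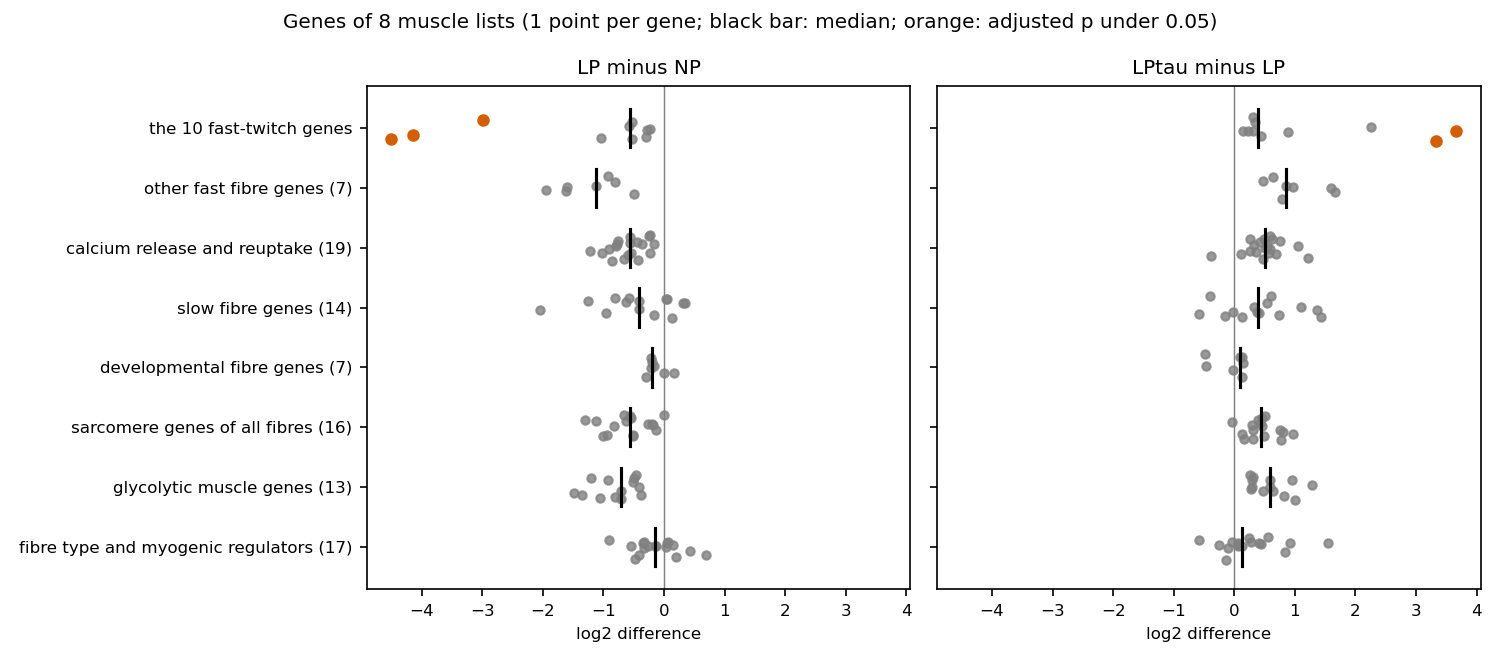
Log2 differences per gene (x axis) in 8 lists of muscle genes, for LP minus NP and LPtau minus LP. Each point is a gene, black bars are medians and orange points passed an adjusted p of 0.05. Mybpc2, Pvalb and Actn3 lie beyond every other gene shown in LP minus NP, where the list medians run from -1.12 to -0.16.

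The mean of the 16 sarcomere genes was 11.09, 11.94 and 11.71 on the LP arrays, against 12.18, 12.20 and 12.11 on the NP arrays. It was 11.76 on LPtau 1 and 11.61 on NPtau 2, below LP 2. The mean of the 7 developmental fibre genes was 11.44, 12.33 and 12.39 on the LP arrays, against 12.21, 12.22 and 12.13 on the NP arrays, so LP 1 alone of the LP arrays was below NP by this list. Scaled to the sarcomere mean on each array, a setting chosen after seeing the data, Mybpc2 in LP muscle was -3.46, -3.76 and -4.52 relative to the NP mean, with a mean of -3.91. Pvalb was -3.44, -3.19 and -4.04, and Actn3 was -2.58, -1.94 and -2.65. All 3 passed the test on this scale, with adjusted p of 4.39e-05, 1.17e-05 and 0.000628 in limma. Casq1 was -0.46 and the other 6 turned to 0.01 to 0.36, none of them called. The direction of these 6 therefore depends on the scale. The scaling moves the median difference of all genes to 0.58.

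No marker gene of another tissue passed the test in LP against NP, but several lists had shifted means. Cartilage markers had higher LP means in 8 of 8, with a median of 1.72. The log2 of their summed level was 14.05, 13.72 and 9.24 on the LP arrays, against 9.80, 11.45 and 11.48 on the NP arrays, and 12.59 to 13.42 on the LPtau arrays. Skin epithelium markers were higher in 6 of 6, with a median of 1.20, and summed to 16.01, 11.20 and 10.09 on the LP arrays, against 13.02, 8.30 and 12.82 on the NP arrays. Fat cell markers were lower in 4 of 4 measured, with a median of -1.13, and summed to 12.91 to 13.37 in LP, against 13.69 to 14.31 in NP. Hepatocyte markers were higher in 5 of 5 measured (median 1.18) and bone markers in 4 of 4 (0.52), and endothelial markers were lower in 6 of 6 (-0.48) and smooth muscle markers in 5 of 5 (-0.35), all uncalled.

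On LP 3 the cartilage sum was the lowest of the 12 arrays, and Mybpc2, Pvalb and Actn3 there were 5.79, 4.92 and 9.07. The part of the marker differences in the results for the 10 genes was not tested. Sex was called from Xist alone, by whether its mean level lay above the midpoint of its range. By this, 1 of 3 LPtau, 2 of 3 LP, 2 of 3 NPtau and 1 of 3 NP arrays were from females. With sex as a covariate the LP minus NP differences were -4.35, -4.06 and -2.84 for Mybpc2, Pvalb and Actn3, with adjusted p of 0.00543, 0.00403 and 0.0457 in limma.

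**Figure D4:**
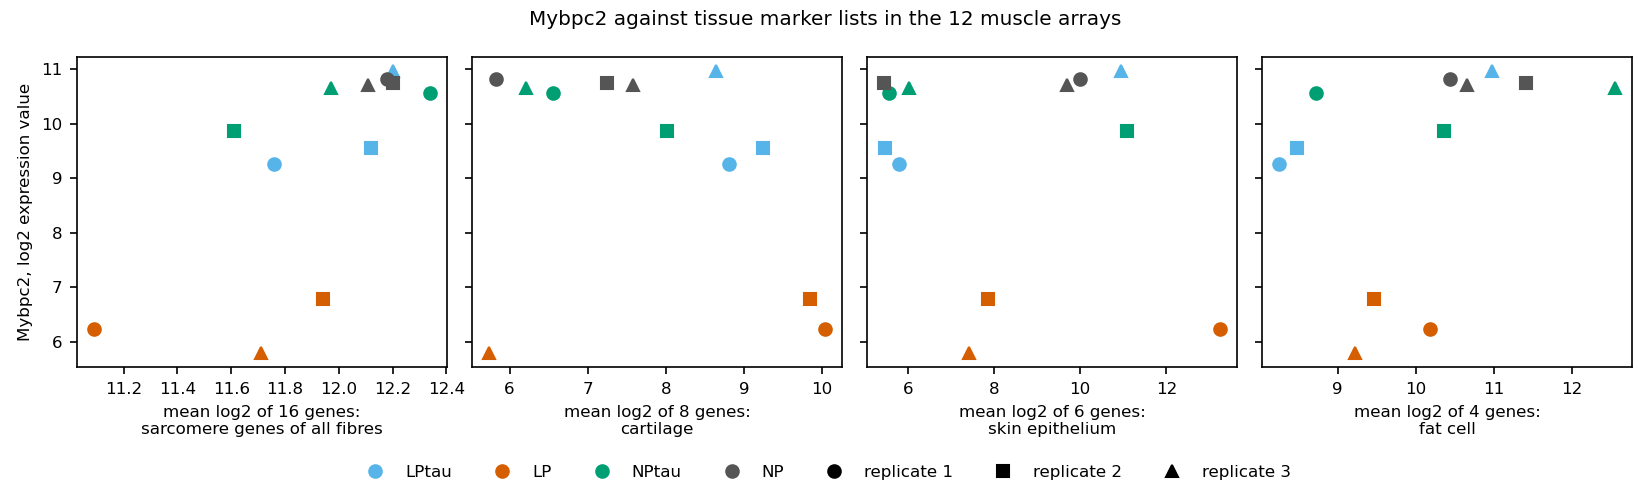
Log2 value of Mybpc2 (y axis) against the mean log2 value of 4 marker lists (x axes) on the 12 muscle arrays, coloured by diet. The 3 LP arrays lie at 5.79 to 6.78 on the y axis, and their cartilage means run from 5.74 to 10.04.

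Among themselves, the genes differed in how closely they ran together over the 12 arrays. Likeness was measured as the root mean square difference of 2 genes, each centred on its NP mean, and it describes these arrays without a test. Mybpc2 and Pvalb were each the nearest gene of the other, at 0.401 log2 units. Actn3 was nearest to Eef1a2, a translation elongation factor gene of muscle and neurons, at 0.483, and Eef1a2 was itself called in LP minus NP (-2.25, SE 0.32, adjusted p 0.0314 in limma). Eef1a2 stood at -0.26 relative to NP in LPtau and at -0.34 in NPtau.

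Genes with small differences had closer neighbours, as the measure scales with the size of the change. Myl1 and Mylpf were nearest to each other at 0.0587, Tnni2 and Atp2a1 at 0.07, and Tnnt3 was nearest to Tnni2 at 0.0735. Tnnc2 was nearest to Myh8 at 0.061. Casq1 was nearest to Dhrs7c, which encodes a reductase of the sarcoplasmic reticulum, at 0.134. The mean profile of the 10 genes was -0.71, -0.25 and 0.01 on the LPtau arrays, -1.88, -1.14 and -1.51 on the LP arrays, 0.00, -0.60 and -0.21 on the NPtau arrays and 0.04, 0.05 and -0.08 on the NP arrays. In LP this mean lay between the differences of Mybpc2, Pvalb and Actn3 (-4.5 to -2.98) and those of the other 7 (-1.04 to -0.23). It thus stands for neither group. The other genes closest to the mean profile were Sh3bgr at 0.167, Tgm2 at 0.182, Sel1l3 at 0.186, Yipf7 at 0.214 and Popdc3 at 0.222. Their LP minus NP differences were -1.48, -1.42, -1.30, -1.18 and -1.56, and none was called.

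In liver, which lacks these fibres, 0 of the 10 genes were called in LP against NP, beside 425 of all genes (2.34%) in limma. Mybpc2 read 4.66, 5.08 and 4.85 in LP liver, against 4.90, 5.01 and 4.91 in NP liver, with no separation of the groups. Pvalb read 5.66, 5.65 and 5.73 in LP liver, against 5.40, 5.52 and 5.50 in NP liver, a difference of 0.21 (SE 0.11) with an adjusted p of 0.266 in limma. Here all LP livers lay above all NP livers. The same held for Actn3, Tnnc2 and the brightest Tnni2 probe set in liver. Their differences were 0.32, 0.33 and 0.27, with adjusted p of 0.278, 0.575 and 0.335 in limma. The share of all liver genes with such separation was not counted. The liver and muscle arrays were normalized apart, so no level was compared between the tissues.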

How the data were processed

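Biotin-labelled RNA from liver and hindleg muscle was hybridised to Affymetrix arrays. The authors deposited RMA values on a log2 scale. The submitters' processing notes name RMA, R 2.7.0 and MAS5, the last without its role. Liver and muscle were normalized separately, per the labels. RMA evens out arrays at the level of single probes, and the probe set values still differed in range, with a highest value of 14.2 on NPtau 2. Differences near the top or bottom of the range can be compressed. No further normalization was applied, and 0 columns were left without a sample.

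Each gene was represented by its brightest probe set, judged by the mean of the 12 arrays in a tissue, which gave 18193 genes. The muscle model (limma 3.58.1, R 4.3.3) had a mean for each of 4 diets and 6 contrasts, adjusted over all genes by Benjamini-Hochberg, and called at 0.05. An exact test of 3 against 3 arrays cannot go below p = 0.1. Genes named beyond the 10 are, per list, the 3 with the largest LP minus NP difference, as no list held a called gene, and the nearest genes by root mean square difference. The 10 genes and the lists were chosen with earlier results of these data known. Alternatives changed normalization, probe set choice, filter, arrays fitted, variance model, array weights, sex, replicate block and single arrays. Promoter sequences came from RefSeq, build GRCm38.p6.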

Additional observations from a re-analysis of the deposited data

How the results depend on the processing

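Of the 39 single-gene differences followed, recomputed 887 times in all, 837 kept direction and side of the threshold, 12 lost and 18 gained a call, and 20 changed sign. Most of the 39 were uncalled, and only a called difference could lose a call. The losses were 6 of 23 for Actn3 in LP minus NP, and 3 of 23 each for Mybpc2 and Pvalb in LPtau minus LP. A further 7 uncalled genes in each of NPtau minus NP, LPtau minus NP and LPtau minus NPtau were recomputed 161 times per contrast: 7, 25 and 23 values changed sign and 0 were called. Mybpc2 and Pvalb were called in LP minus NP under every alternative run, at -4.75 to -3.91 and -4.51 to -3.56, with adjusted p of up to 0.0253 and 0.0457. Of the 10 genes, 2 to 4 were called in LP minus NP: 2 where Actn3 was lost, with only the arrays compared (adjusted p 0.0695), under the replicate block or without single arrays, and 4 under array weights, which added Casq1 (0.0461). In LPtau minus LP the count was 0 with only the arrays compared (adjusted p 0.456 for Mybpc2 and Pvalb) and 0 to 3 without single replicates. Actn3 gained a call there in 7 of 23 alternatives and stayed uncalled in the other 16. Those 7 included cyclic loess (adjusted p 0.0215), low genes left out (0.0438) and trend and robust variance (0.0485). Array weights (0.01) and scaling to the sarcomere genes (0.0229) were also among them. The interaction called 1 with cyclic loess or with trend and robust variance, 2 without low genes, with array weights or scaled to the sarcomere genes, and 0 to 1 without single replicates. Over all genes it called 1 with cyclic loess, 1 with trend and robust variance, 2 without low genes and 4 with array weights. Across all settings this count over all genes ran from 0 to 5. In liver array weights called 1 of the 10 in LP minus NP, beside 4727 of all genes. Replicate numbers did not pair the arrays: same-numbered arrays of different diets correlated at -0.443 to 0.341 and 1 of 12 fitted its own number best. The replicate block gave 2 calls in LP minus NP (Actn3 0.0734) and 0 in LPtau minus LP, where Mybpc2 and Pvalb had an adjusted p of 0.0863. Scaling to the sarcomere genes, chosen after seeing the data, turned Tnnt3, Tnni2, Tnnc2, Myl1, Mylpf and Atp2a1 to 0.0149, 0.052, 0.311, 0.357, 0.286 and 0.0623 in LP minus NP, to -0.00683, -0.105, -0.3, -0.225, -0.139 and -0.145 in LPtau minus LP, and to -0.0486, -0.0834, -0.312, -0.182, -0.101 and -0.146 in the interaction. It moved the median of all genes to 0.58, -0.43 and -0.61. Over the fits without single replicates Tnnc2 ranged from -0.00774 (without LP replicate 1) to 0.347 in LPtau minus LP, and Pvalb from -0.413 to 0.0412 (without NPtau replicate 1) in LPtau minus NPtau. Over all genes the calls in LP minus NP, 23 as reported, ranged from 2 under the replicate block to 789 with array weights, those in LPtau minus LP, 4 as reported, from 0 to 281, and those in liver, 425 as reported, from 21 without NP replicate 1 to 4727. Where a cause is not given by the construction of an alternative, it was not tested.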
